A study of Mus musculus with 2 samples.

Results

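The genes described here are 55 developmental transcription factors outside the Hox clusters, taken by symbol from a list of patterning regulators, out of 51912 genes in the deposited files. They were measured by RNA-seq in fibroblast lines grown from mouse embryos (MEFs), which are mesenchymal cells, on a C57BL/6 background. The UKS line carried floxed Usp16 alleles that were deleted with Cre recombinase from an adenovirus, and the KS line was wild type for Usp16 and received the same virus. SV40 T antigen, which blocks p53 and RB function, had been used to immortalize both. Each line gave 1 library, the number of embryos behind a line is not given, and the comparison asks which transcripts differ between fibroblasts without and with Usp16. No difference below therefore has a replicate check, and none was tested.

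Developmental transcription factors bind DNA and set where in the embryo a cell lies and what it can become, and fibroblasts keep part of the pattern of their site of origin in culture. Many of their genes start in CpG-rich DNA bound by Polycomb complexes, which place ubiquitin on histone H2A, and USP16 is an enzyme that removes that ubiquitin. The families here include T-box, forkhead, Iroquois, paired-type and other homeobox, GATA, EBF and SOX factors.

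The estimated counts summed to 23205746 in UKS and 26561637 in KS, with 19140 genes above 0 in UKS and 20218 in KS. Levels are given as CPM, counts scaled to a common library size with TMM factors. Usp16 had 19.7 CPM in UKS and 45.3 CPM in KS, a 2.30-fold lower level in UKS (95% counting interval 2.07 to 2.57), so transcripts were still counted in the deleted line. Xist, the RNA that coats the inactive X, had 6998 counts in UKS and 1 count in KS, while the Y-linked Ddx3y had 1 count in UKS and 1511 counts in KS. The lines thus differed in sex-linked transcripts, and an effect of Usp16 cannot be told apart from other differences between the embryos or lines. None of the 55 genes is on X or Y. All 13 fibroblast markers were measured and summed to 21719 CPM in UKS and 19779 CPM in KS. The largest part of both sums was Fn1, at 14582 CPM in UKS and 8995 CPM in KS. Of the 13 log2 ratios, 5 were above 0 and 8 below, with a median of -0.21. Among them Col1a1, a fibrillar collagen, was at 1039 CPM in UKS and 1202 CPM in KS. The 2 markers past 2-fold as counted were the surface markers Thy1 (log2 ratio -2.20) and Pdgfra (-1.51), both lower in UKS. The related surface receptor Pdgfrb (0.48) and Fn1 (0.70) went the other way, within 2-fold. Over all genes the ratio also ran with transcript length (Spearman's rho -0.40) and GC content (0.52; 12997 genes, which are not replicates), so the ratio with that trend removed is given below where it lies on the other side of 2-fold or of 0. It moved other ratios too, such as those of Prrx2 (1.81 as counted and 1.27 with the trend removed), Mecom (-0.87 and -0.41) and Zic1 (3.39 and 3.83), and the plot of ratios shows both values for each measured gene. Of the fibroblast markers, 3 rather than 2 were past 2-fold lower with the trend removed, as Vim went from -0.80 to -1.14. Within 2-fold, Twist1 went from 0.29 to -0.23 and S100a4 from 0.14 to -0.15.

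Ratios are log2((UKS CPM + 1)/(KS CPM + 1)), a scale that understates differences of low genes. A gene counts as measured at a mean of at least 1 CPM, and as higher or lower when the ratio passes 2-fold, which is a size and not a test. Folds are ratios of CPM, with exact 95% intervals that cover counting error only. Of the 55 genes 43 were measured, and 11 of them were higher in UKS, against a background of 5.81% of all 13015 measured genes. Another 13 were lower in UKS, against a background of 10.7%, and 19 lay between. Of the 43, 2 were under 1 CPM in 1 library and so passed the filter through the other alone. Pitx1, among the lower genes, had 0 CPM in UKS, and Six2, among those between, had 0.871 CPM in KS. The 24 genes past 2-fold either way made up 55.8% of those measured, beside 16.5% of all genes. These genes, and the relatives and cofactors below, were chosen with earlier results of these data known. Their shares are therefore descriptions and no independent result. The median ratio was -0.20 over the 43 genes and 0.03 over all genes, and the median absolute ratio was 1.21 and 0.43. With the length and GC trend removed, 11 were higher, where 5.5% of all genes were, and 12 were lower, where 4.99% were. Of the genes as first counted, 10 higher and 9 lower ones remained. Dlx1, Ebf1, Foxp2, Lhx9 and Meis1 then lay within 2-fold, while Sox11 (1.62), Nr2f1 (-1.16), Osr1 (-1.21) and Osr2 (-1.45) passed it. The 11 higher genes summed to 565 CPM in UKS and 145 CPM in KS, and the 13 lower genes to 69.1 CPM in UKS and 283 CPM in KS. The 19 genes between summed to 764 CPM in UKS and 766 CPM in KS. In such bulk samples, fewer cells of a type and less RNA per cell cannot be told apart.

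**Figure D1:**
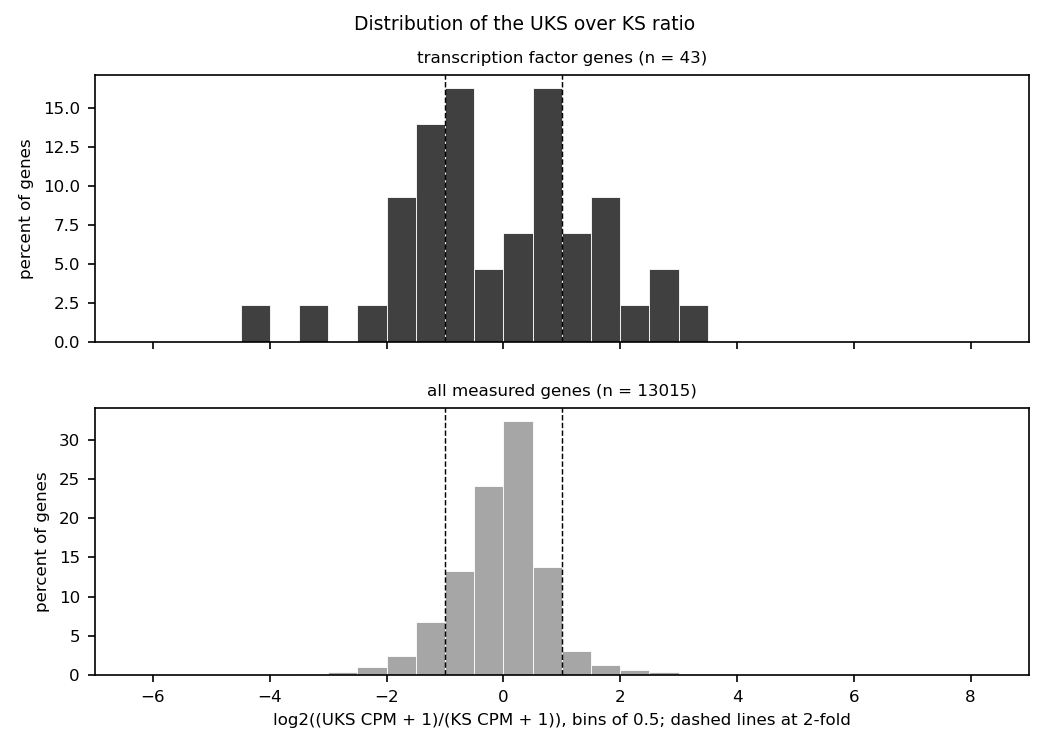
Percent of genes (vertical axis) by log2 ratio of UKS over KS in bins of 0.5 (horizontal axis), for the 43 measured transcription factor genes and for all 13015 measured genes, with dashed lines at 2-fold. The transcription factors spread to both sides, with 11 past 2-fold higher and 13 past 2-fold lower.

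Promoters are shown for Zic1 and Irx3, higher in UKS, and for En1 and Ebf3, lower in UKS, which had the 2 highest and the 2 lowest ratios among the genes matched to a RefSeq promoter. Each line holds 250 bases before and 50 after the RefSeq start, in GRCm38.p6: Zic1 at chr9:91365719-91366018 (minus strand), Irx3 at chr8:91801605-91801904 (minus), En1 at chr1:120602237-120602536 (plus) and Ebf3 at chr7:137314396-137314695 (minus). Capitals mark matches on either strand to CCCNNGGG (the centre of the EBF site), TATAAA (the TATA box), CCAAT (the CCAAT box) or GGGCGG (the GC box).
Zic1: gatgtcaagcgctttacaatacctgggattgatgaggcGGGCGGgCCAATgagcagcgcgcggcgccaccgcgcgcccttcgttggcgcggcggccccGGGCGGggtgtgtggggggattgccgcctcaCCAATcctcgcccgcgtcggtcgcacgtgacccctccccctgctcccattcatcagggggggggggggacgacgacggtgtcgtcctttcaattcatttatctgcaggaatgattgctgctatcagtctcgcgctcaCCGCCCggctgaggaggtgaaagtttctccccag
Irx3: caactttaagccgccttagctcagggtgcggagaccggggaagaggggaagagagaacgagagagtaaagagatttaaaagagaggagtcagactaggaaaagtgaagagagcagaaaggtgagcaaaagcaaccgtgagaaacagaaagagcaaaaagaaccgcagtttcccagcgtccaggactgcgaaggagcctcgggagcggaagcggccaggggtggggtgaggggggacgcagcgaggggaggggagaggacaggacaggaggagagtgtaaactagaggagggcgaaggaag
En1: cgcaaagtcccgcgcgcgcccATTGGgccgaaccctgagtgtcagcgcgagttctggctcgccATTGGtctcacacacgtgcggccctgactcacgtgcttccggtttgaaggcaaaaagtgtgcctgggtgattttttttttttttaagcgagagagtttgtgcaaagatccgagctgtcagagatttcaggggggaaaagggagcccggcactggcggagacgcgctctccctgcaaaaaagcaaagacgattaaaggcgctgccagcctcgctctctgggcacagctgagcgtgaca
Ebf3: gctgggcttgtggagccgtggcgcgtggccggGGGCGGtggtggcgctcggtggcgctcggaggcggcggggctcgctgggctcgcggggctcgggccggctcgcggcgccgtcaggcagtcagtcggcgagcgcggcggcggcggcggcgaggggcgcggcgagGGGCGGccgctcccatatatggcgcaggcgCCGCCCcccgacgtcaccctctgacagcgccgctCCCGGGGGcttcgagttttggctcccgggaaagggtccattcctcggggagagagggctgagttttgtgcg
The Zic1 window holds GC boxes and CCAAT boxes, that of Ebf3 holds GC boxes and an EBF centre, that of En1 holds CCAAT boxes alone, and the Irx3 window holds none of the 4 motifs.

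The EBF factors, helix-loop-helix proteins that act in B cells, neurons, fat and bone precursors, were lower in UKS in all 3 members. Ebf2, which marks precursors of brown fat and bone, had 63 counts in UKS and 1746 counts in KS (chr14:67233292-67430918, plus strand). That is 2.70 CPM in UKS against 66.1 CPM in KS, or 24.5-fold lower (19.1 to 32.0), and its ratio of -4.18 was the lowest of the 43 genes. Ebf3, which acts in neurons and marrow stroma, had 18.1 CPM in UKS and 53.6 CPM in KS, 2.97-fold lower (2.66 to 3.31; chr7:137193673-137314445, minus). Ebf1, the B cell factor, had 7.32 CPM in UKS and 20.3 CPM in KS, 2.77-fold lower (2.33 to 3.31; chr11:44617317-45008091, plus). The Ebf1 ratio of -1.36 became -0.70 with the trend removed, while Ebf2 stayed at -3.74 and Ebf3 at -1.36. Ebf4, the remaining gene of the family and not among the 55, went the other way, with 11.1 CPM in UKS and 3.41 CPM in KS (3.27-fold higher, 2.56 to 4.20).

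Among paired-type and craniofacial homeobox genes both directions occurred. Alx4, which patterns the skull and the anterior limb bud, had 45 counts in UKS and 814 counts in KS, or 1.93 CPM in UKS and 30.8 CPM in KS (log2 ratio -3.44; 95% interval of the fold 11.8 to 22.1 lower; chr2:93642384-93681339, plus). Alx1, its craniofacial relative, was at 0 in both libraries. Prrx2, a factor of limb and facial mesenchyme, had 139 CPM in UKS and 38.9 CPM in KS, 3.57-fold higher (3.32 to 3.83; chr2:30834972-30881251, plus). Its partner Prrx1, not among the 55, had 212 CPM in UKS and 411 CPM in KS, 1.94-fold lower, and its ratio of -0.95 became -0.29 with the trend removed.

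Dlx1 and Dlx2, neighbours that pattern the jaw arches and forebrain interneurons, were both higher in UKS. Dlx2 had 26.9 CPM in UKS and 7.39 CPM in KS, 3.65-fold higher (3.10 to 4.30; chr2:71543408-71546754, minus). Dlx1 had 20.7 CPM in UKS and 9.05 CPM in KS, 2.28-fold higher (1.95 to 2.68; chr2:71528113-71533981, plus), and its ratio of 1.11 became 0.96 with the trend removed. Dlx3, a gene of skin, teeth and placenta, was at 0 in both. Pax9, needed for teeth, palate and vertebrae, had 30.2 CPM in UKS and 7.39 CPM in KS, 4.09-fold higher (3.48 to 4.82; chr12:56691767-56712822, plus). Pax3, a factor of muscle precursors and neural crest, had 5 counts in each library. Msx2, which acts in skull and limb and responds to BMP, had 4.88 CPM in UKS and 2.58 CPM in KS. Its relative Msx1 had 12 counts in UKS and 4 in KS, and Barx1, a factor of stomach and tooth mesenchyme, had 4 in UKS and 12 in KS, both under the measuring limit.

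En1, Shox2, Emx2 and Lhx9, homeobox genes of other families, were lower in UKS. En1, which patterns the midbrain and ventral limb and marks a lineage of dorsal skin fibroblasts, had 34 counts in UKS and 166 in KS (4.32-fold lower, 2.97 to 6.44; chr1:120602418-120607992, plus). Shox2, a factor of the proximal limb and the sinus node, had 9.21 CPM in UKS and 22.1 CPM in KS, 2.40-fold lower (2.05 to 2.82; chr3:66971727-66981771, minus). Emx2, which acts in cortex, urogenital ridge and shoulder blade, had 7.92 CPM in UKS and 20.8 CPM in KS, 2.62-fold lower (2.21 to 3.11; chr19:59458372-59465357, plus). The LIM homeobox gene Lhx9, of gonad and limb, had 37 counts in UKS and 131 in KS, 3.13-fold lower (2.16 to 4.64; chr1:138825186-138848577, minus). Its ratio of -1.21 became -0.57 with the trend removed. Lhx2, a LIM factor of limb and forebrain, had 12 counts in UKS and 6 in KS, and Isl1, of hindlimb and motor neurons, was at 0 in both.

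**Figure D2:**
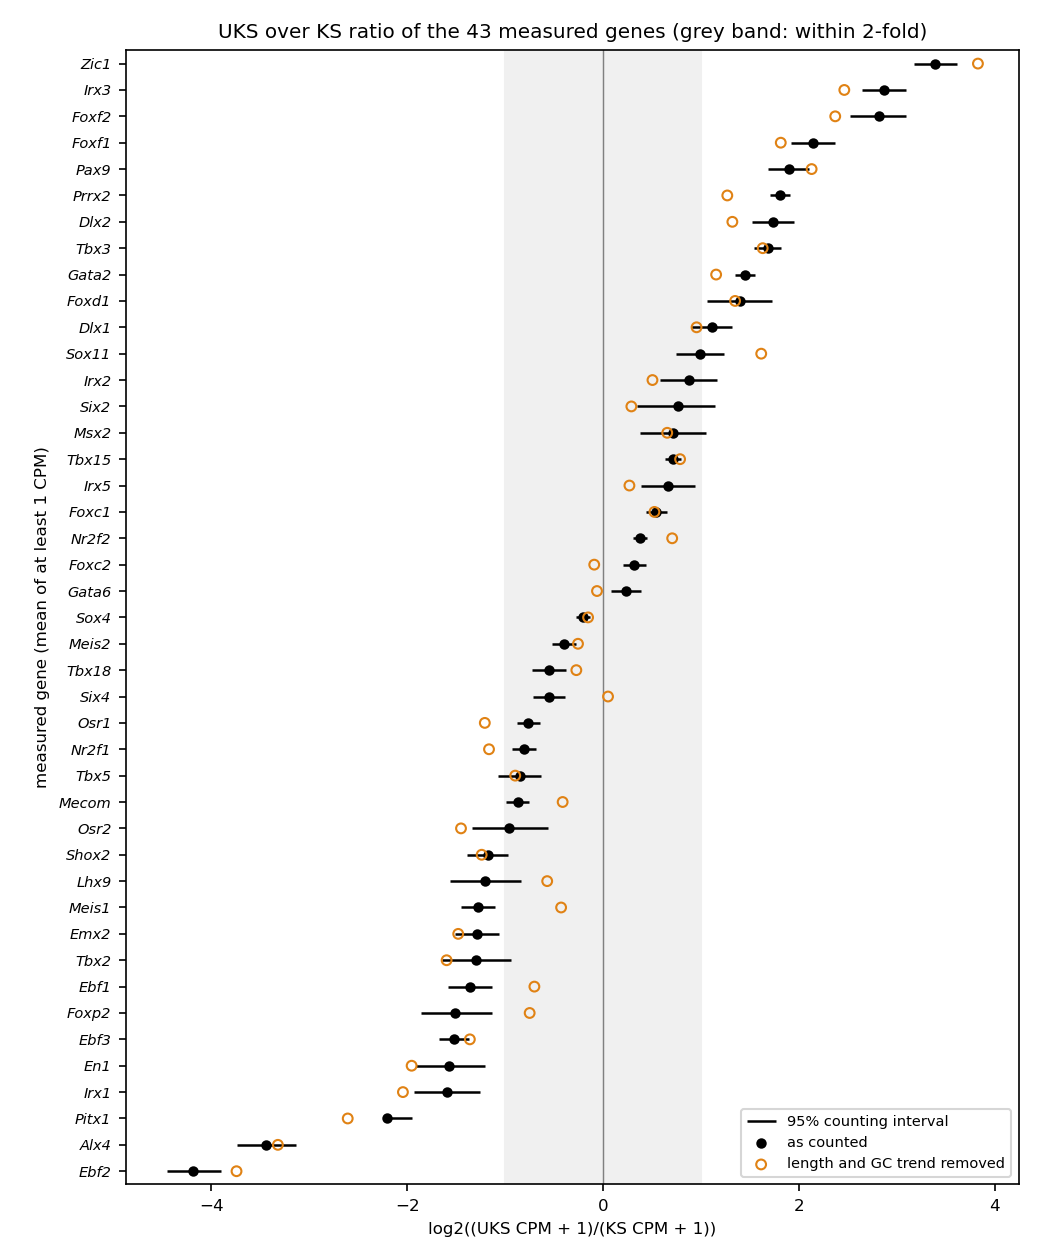
Log2 ratio of UKS over KS (horizontal axis) of each of the 43 measured genes (vertical axis), as counted with 95% counting intervals and, in open circles, with the length and GC trend removed. Zic1 (3.39) and Ebf2 (-4.18) lie at the ends, and the grey band covers less than 2-fold.

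The Iroquois homeobox genes, which sit in clusters and pattern limb, heart and neural tube, were split. Irx3, of limb bud and heart conduction, had 1071 counts in UKS and 143 in KS, or 45.9 CPM in UKS and 5.42 CPM in KS (8.47-fold higher, 7.11 to 10.2; chr8:91798525-91802067, minus). Irx1 had 45 counts in UKS and 207 in KS, 4.07-fold lower (2.94 to 5.75; chr13:71957921-71963723, minus). Irx2 had 8.35 CPM in UKS and 4.09 CPM in KS, 2.04-fold higher (1.61 to 2.61), although its ratio of 0.88 on the log2 scale stayed under the limit. Irx5, the partner of Irx3, had 8.69 CPM in UKS and 5.11 CPM in KS. The 4 genes thus gave 1 past 2-fold in each direction and 2 between.

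Of 6 forkhead genes, Foxf1, Foxf2 and Foxd1 were higher in UKS, Foxp2 was lower and 2 lay between. Foxf2, which acts in palate and gut mesenchyme, had 521 counts in UKS and 61 in KS, or 22.3 CPM in UKS and 2.31 CPM in KS (9.66-fold higher, 7.40 to 12.8; chr13:31625816-31631403, plus). Foxf1, its relative in lung and gut mesenchyme, had 28.6 CPM in UKS and 5.68 CPM in KS, 5.03-fold higher (4.21 to 6.04; chr8:121084386-121088144, plus). Foxd1, a marker of kidney stroma, had 6.94 CPM in UKS and 2.01 CPM in KS, 3.46-fold higher (2.52 to 4.81; chr13:98354242-98359305, plus). Foxc1 and Foxc2, which act in skull, eye and vessels, lay within 2-fold: Foxc1 had 69.6 CPM in UKS and 47.4 CPM in KS, and Foxc2 49.6 CPM in UKS and 39.6 CPM in KS. The Foxc2 ratio of 0.32 became -0.09 with the trend removed. Foxp2, a factor of brain and lung, went the other way, with 30 counts in UKS and 145 in KS, 4.27-fold lower (2.87 to 6.56; chr6:14901349-15441977, plus). The Foxp2 ratio of -1.51 became -0.75 with the trend removed.

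T-box genes, which set limb identity and pattern the heart, also differed from each other. Tbx3, a repressor in limb, heart and mammary gland, had 67.7 CPM in UKS and 20.4 CPM in KS, 3.32-fold higher (3.01 to 3.67; chr5:119670669-119684724, plus). Its closest relative Tbx2 had 41 counts in UKS and 152 in KS, 3.28-fold lower (2.31 to 4.75; chr11:85832551-85841948, plus). Tbx5, the forelimb factor, had 9.42 CPM in UKS and 17.8 CPM in KS, 1.89-fold lower (1.61 to 2.23). The hindlimb factor Pitx1 had 0 counts in UKS and 95 in KS (chr13:55825051-55836192, minus). With a floor of 3 counts put in place of the 0 in UKS, that is 28.0-fold lower. This fold carries no counting interval, unlike the others. On the log2 scale the Pitx1 ratio was -2.20, with a 95% counting interval of -2.20 to -1.95. Tbx4, the other hindlimb factor and not among the 55, had 1 count in UKS and 21 in KS, and transcripts of forelimb Tbx5 were counted in both lines. Tbx15, a factor of dermis and skeleton, had 133 CPM in UKS and 80.5 CPM in KS, and Tbx18, of somites and epicardium, 17.0 CPM in UKS and 25.2 CPM in KS, both within 2-fold.

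The highest ratio of the 55 genes was that of Zic1, a zinc finger factor of neural tube, cerebellum and dorsal somites. It had 1450 counts in UKS and 132 in KS, with 62.1 CPM in UKS (12.4-fold higher, 10.4 to 15.0; chr9:91358058-91365810, minus). Gata2, known for blood stem cells and also made in mesenchyme, had 115 CPM in UKS and 41.6 CPM in KS, 2.77-fold higher (2.58 to 2.98; chr6:88193891-88207032, plus). The blood markers stood at 5.31 CPM in UKS and 6.48 CPM in KS in sum, with 1 of 7 rows measured, Cd68 at 4.84 CPM in UKS and 5.83 CPM in KS, and Ptprc, the pan-leukocyte marker, at 1 count in UKS and 2 counts in KS. Gata6, a factor of heart and gut, had 26.98 CPM in UKS and 22.8 CPM in KS, and its ratio of 0.24 became -0.06 with the trend removed. Gata3, of T cells, had 6 counts in UKS and 21 in KS, and the heart factor Gata4 had 10 in UKS and 3 in KS. Mecom, a zinc finger factor of blood stem cells, had 36.3 CPM in UKS and 67.0 CPM in KS. Wt1, of kidney, gonad and mesothelium, had 0 counts in UKS and 7 in KS. Of 6 mesothelial markers Upk3b, Lrrn4 and Muc16 were at 0 in both libraries, and the list summed to 11.6 CPM in UKS and 23.4 CPM in KS, mostly from Krt19, a keratin of epithelia too, at 11.4 CPM in UKS and 16.02 CPM in KS, and Msln at 4 counts in UKS and 191 in KS; their part in the Wt1 values was not tested.

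Among the other families, Meis1, a homeodomain partner of Hox and Pbx proteins, had 13.96 CPM in UKS and 35.1 CPM in KS, 2.51-fold lower (2.21 to 2.86; chr11:18879817-19018985, minus), and its ratio of -1.27 became -0.43 with the trend removed. Meis2 had 36.4 CPM in UKS and 48.3 CPM in KS. The Odd-skipped genes of kidney and joint mesenchyme lay on the low side in UKS: Osr1 had 35.8 CPM in UKS and 61.6 CPM in KS, and Osr2 had 24 counts in UKS and 78 in KS. Of the COUP-TF nuclear receptors, Nr2f1 had 33.4 CPM in UKS and 59.4 CPM in KS, while Nr2f2, of veins and mesenchyme, had 136 CPM in UKS and 104 CPM in KS. Sox11, a factor of neural and mesenchymal progenitors, had 13.3 CPM in UKS and 6.17 CPM in KS, 2.15-fold higher (1.77 to 2.62), and its relative Sox4 had 124 CPM in UKS and 143 CPM in KS. Six4, of muscle precursors, had 18.7 CPM in UKS and 27.9 CPM in KS, with a ratio of -0.55 that became 0.05 with the trend removed. Six2, of nephron progenitors, had 51 counts in UKS and 23 in KS. The helix-loop-helix factor Hand2, of posterior limb and heart, had 34 counts in UKS and 7 in KS, 5.49-fold higher (2.40 to 14.7), but stayed under the measuring limit. Tcf21, a helix-loop-helix factor of organ mesenchyme and epicardium, was at 0 in both.

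**Figure D3:**
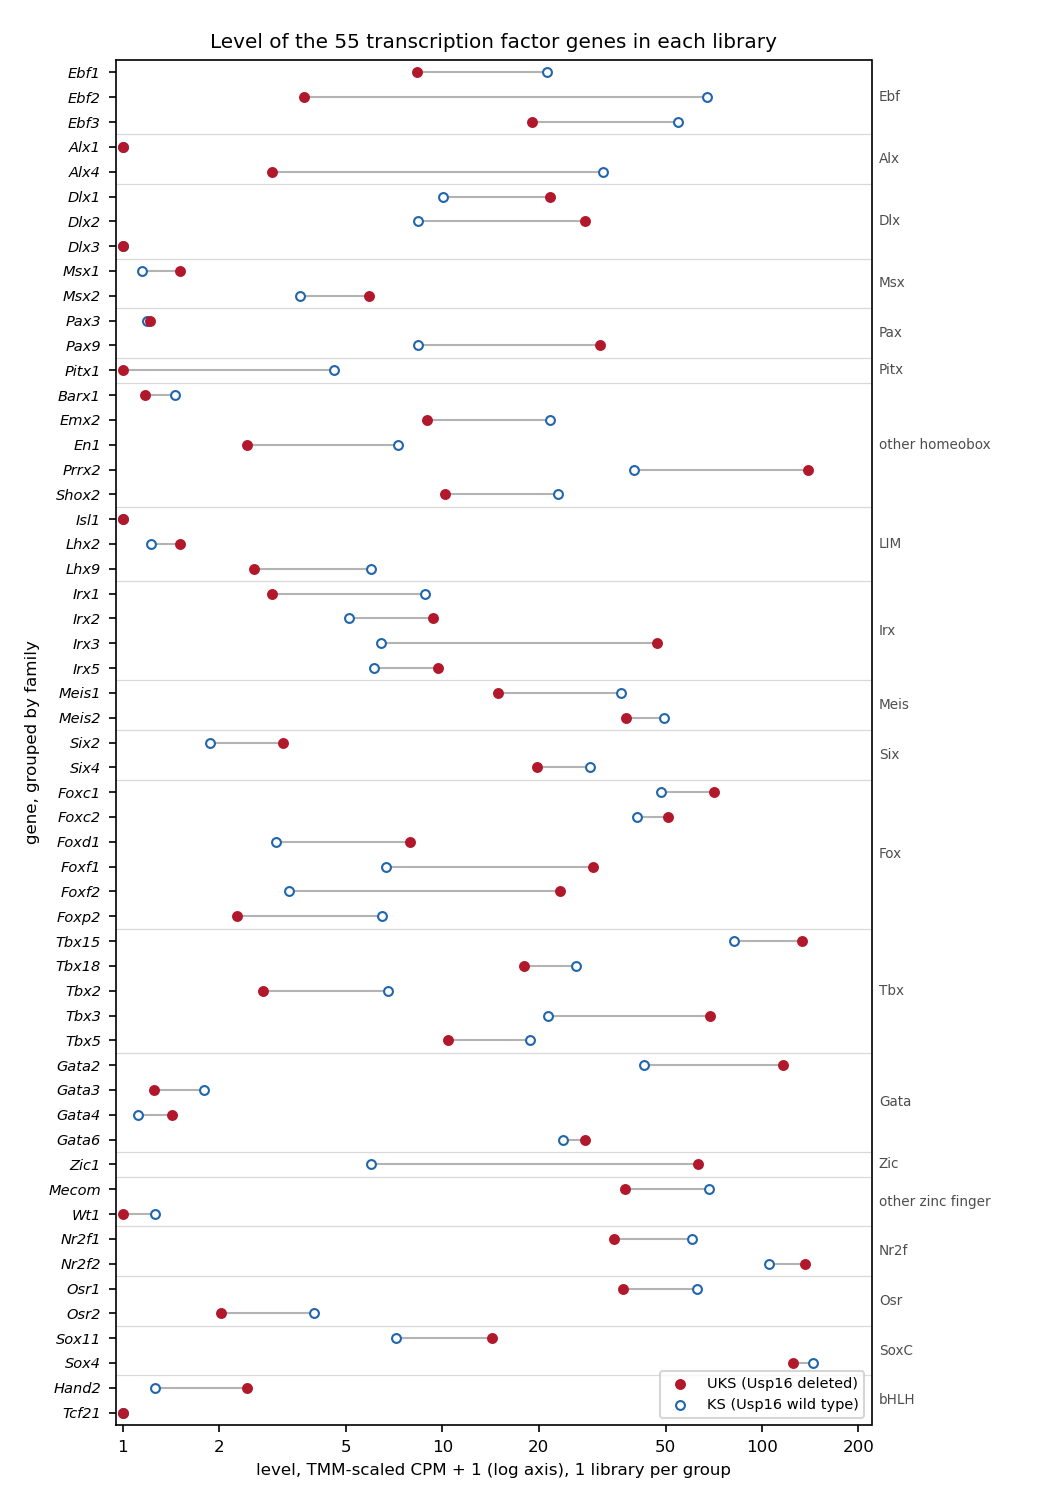
Level of the 55 genes, as TMM-scaled CPM + 1 on a log axis (horizontal), in UKS (filled) and KS (open), with genes grouped by family (vertical axis), 1 library each. Alx1, Dlx3, Isl1 and Tcf21 sit at 0 CPM in both, and Prrx2 is at 139 CPM in UKS and 38.9 CPM in KS.

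Levels can be compared between genes only per length, here as CPM per kb of transcript. Prrx2 ranked first in UKS with 96.2 CPM per kb, against 26.97 CPM per kb and rank 3 in KS. Osr1 ranked first in KS, where it had 30.6 CPM per kb, against 17.8 CPM per kb and rank 7 in UKS. Tbx15, Nr2f2 and Sox4 were among the 5 highest in both libraries. Irx3 stood at rank 8 in UKS and rank 30 in KS, and Zic1 at rank 12 in UKS and rank 39 in KS. Ebf2 moved in the opposite direction, with rank 39 in UKS and rank 9 in KS (0.518 CPM per kb in UKS and 12.7 CPM per kb in KS). Markers of epithelium (13.02 CPM in UKS and 19.96 CPM in KS in sum, 2 of 7 measured), endothelium (3.64 CPM in UKS and 3.71 CPM in KS, 2 of 6) and muscle (2.61 CPM in UKS and 3.52 CPM in KS, 1 of 8, with Myf5, Myog and Nkx2-5 at 0 in both) were counted too, and Krt19 had 7.23 CPM per kb in UKS and 10.2 CPM per kb in KS. With 1 library each, the spread of these ranks between cultures is not known.

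Many of these genes lie in clusters with relatives, so pairs within 1 Mb of each other were compared. Of 13 such pairs with both genes measured and at least 1 of the 55 in them, 11 had ratios of the same sign, as counted; Foxc2 and Six4, which are in some of these pairs, change sign with the trend removed. Foxf2 (2.82) and Foxq1 (1.52) lie 64.8 kb apart, Zic1 (3.39) overlaps Zic4 (1.34), and Foxf1 (2.15) is 28.0 kb from Foxc2 (0.32). The exceptions were Irx1 (-1.59) with Irx2 (0.88), 665 kb apart, and Tbx3 (1.68) with Tbx5 (-0.85), 148 kb apart. Of the genes past 2-fold, 21 had at least 3 measured neighbours within 1 Mb. The median ratio of those neighbours was within 2-fold for 20 of the 21, the exception being Lhx9. Only 16.5% of all measured genes passed 2-fold, so a median within it would be usual for any gene. The count of 20 therefore says nothing particular of these genes. The neighbours' median was on the gene's own side of 0 for 11 of the 21.

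**Figure D4:**
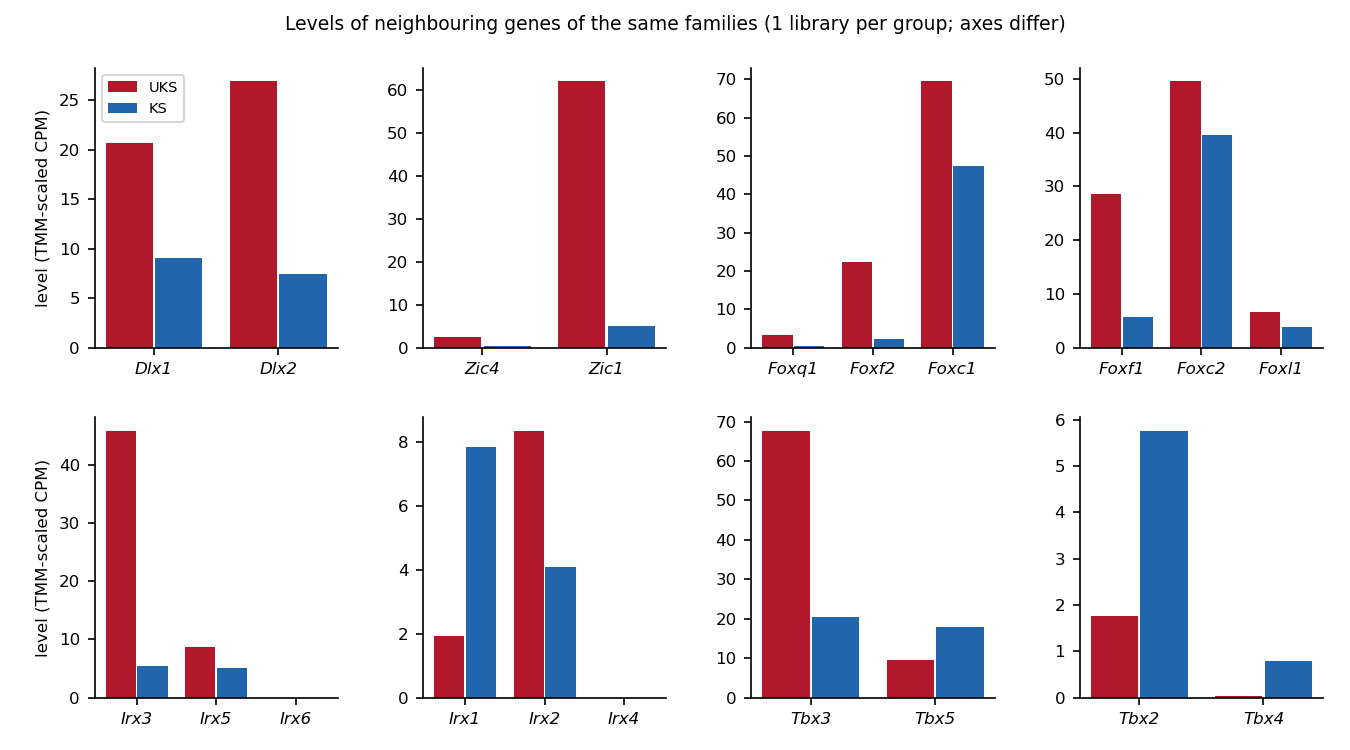
Level (TMM-scaled CPM, vertical axes differ between panels) of neighbouring genes of the same families, with bars for UKS on the left and KS on the right of each pair, 1 library per group. Foxf2 stands at 22.3 CPM in UKS and 2.31 CPM in KS, while Tbx3 and its neighbour Tbx5 differ in opposite directions.

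Of 113 other genes of the same families, 40 were measured, 11 (27.5%) were higher in UKS, beside 5.81% of all genes, and 2 were lower, beside 10.7%, with a median ratio of 0.39. Of the 11 higher ones, 5 were under 1 CPM in KS and so passed the filter through UKS alone. The highest ratios were those of Foxs1, a forkhead gene of pericytes (13.7 CPM in UKS and 1.78 CPM in KS, 7.72-fold higher), and Tbx1, of the pharyngeal arches (6.30 CPM in UKS and 0.606 CPM in KS, 10.4-fold higher). Sox2, of stem cells and neural precursors, had 23.5 CPM in UKS and 4.85 CPM in KS. Prdm16, a brown fat and craniofacial factor, had 34.5 CPM in UKS and 8.67 CPM in KS, and Sox5, of cartilage, 31.3 CPM in UKS and 7.95 CPM in KS. Neural markers summed to 38.5 CPM in UKS and 128 CPM in KS, with 5 of 7 measured, Gap43 at 19.6 CPM in UKS and 101 CPM in KS, Tubb3 at 17.1 CPM in UKS and 20.4 CPM in KS, and Sox10 at 0 in both. Cartilage and bone markers, 4 of 7 measured, summed to 66.6 CPM in UKS and 65.3 CPM in KS, with Runx2 at 31.01 CPM in UKS and 52.4 CPM in KS and Col2a1 at 24.2 CPM in UKS and 11.9 CPM in KS. Sp7, a bone-forming cell factor, had 192 counts in UKS and 16 in KS (13.6-fold higher, 8.14 to 24.2), and Col10a1, a collagen of hypertrophic cartilage, had 64 in UKS and 6 in KS (12.1-fold higher, 5.25 to 34.1). Sp7 (0.606 CPM in KS) and Col10a1 (0.227 CPM in KS) passed the filter through UKS alone. The part of these cells in the values above was not tested.

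Of 34 cofactors that bind these factors, 31 were measured, 7 (22.6%) were lower in UKS, beside 10.7% of all genes, and 0 were higher, beside 5.81%, with a median ratio of -0.08. Just under the limit lay Ssbp4, a partner of LDB proteins, 2.01-fold higher by CPM with a log2 ratio of 0.997, which passes it with library totals or a pseudocount of 0.5 CPM. Eya2, a coactivator of Six2 and its relatives, had 0.728 CPM in UKS and 6.33 CPM in KS, 8.69-fold lower (5.27 to 15.3), and Eya4 had 9.89 CPM in UKS and 26.7 CPM in KS. Being under 1 CPM in UKS, Eya2 passed the filter through KS alone. Ldb2, which bridges LIM factors, had 1.28 CPM in UKS and 7.50 CPM in KS. Zfp521, a zinc finger protein that inhibits EBF1, had 9.17 CPM in UKS and 36.2 CPM in KS, and Zfpm2, a partner of GATA factors, 16.7 CPM in UKS and 46.1 CPM in KS. Tle4, a Groucho corepressor, had 5.23 CPM in UKS and 13.8 CPM in KS. With the trend removed Eya2, Ldb2, Zfp521 and Tle4 stayed past 2-fold lower, while Eya4 (-0.62), Zfpm2 (-0.84) and Tcf4 (0.05), a helix-loop-helix partner, did not.

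**Figure D5:**
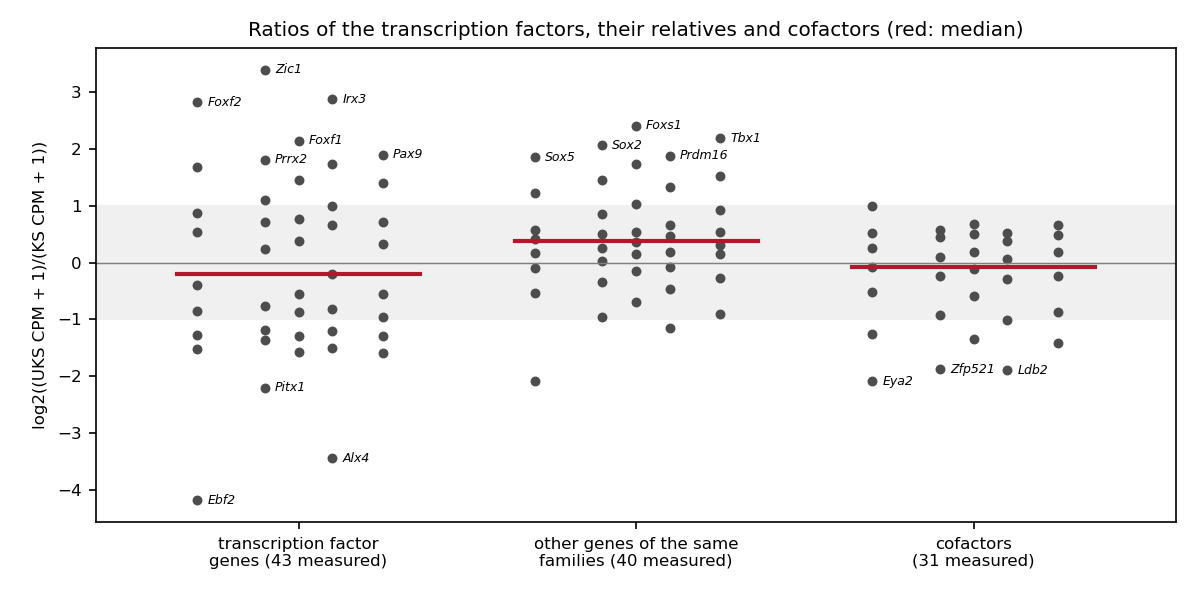
Log2 ratio of UKS over KS (vertical axis) of the measured transcription factor genes, of other genes of their families and of cofactors, each point 1 gene and the red lines medians (-0.20, 0.39 and -0.08). The grey band covers less than 2-fold, horizontal position within a group only spreads the points, and some of the genes far from 0 are labelled.

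RefSeq promoters were matched by symbol for 35 of the 55 genes, in 41 windows. Of these, 33 (80.5%) were CpG-rich (GC over 50% and CpG observed over expected above 0.6), beside 33.3% of all 32851 promoter windows. GC boxes (GGGCGG on either strand) were in 61.0% of the windows and 35.7% of all promoters, and CCAAT boxes in 53.7% and 37.4%. The EBF centre CCCNNGGG was in 24.4% of the windows and 13.7% of all promoters, and TATAAA in 4.88% and 13.6%. The windows of genes higher in UKS were CpG-rich in 9 of 10 cases and those of genes lower in UKS in 5 of 8. They came from 9 of the 11 higher genes and 7 of the 13 lower ones. Ebf2, Alx4, Pitx1 and Irx1, which had the lowest ratios, had no matched promoter. These few windows therefore do not compare the higher and lower genes. A motif match is a description of these letters and says nothing of binding.

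Strand of the counting is not given, so reads of overlapping genes cannot be told apart. Exons of 21 of the 55 genes share bases with exons of a gene on the other strand. For Sox4, 54.6% of its exon bases lie under Gm26735, which had 453 counts in UKS and 257 in KS, and for Tbx18 20.6% lie under another gene. Rsrc1, which shares 4.62% of the exon bases of Shox2, had 917 counts in UKS and 1795 in KS, and Emx2os, which shares 8.79% of those of Emx2, had 55 in UKS and 138 in KS; their part in the Shox2 and Emx2 values was not tested. Antisense transcripts of Irx3 (Irx3os, 20 counts in UKS and 4 in KS) and Tbx3 (Tbx3os1, 35 in UKS and 2 in KS) were few beside the genes themselves. The antisense gene A830082K12Rik, which shares 2.4% of the exon bases of Nr2f1, had more, with 228 counts in UKS and 373 in KS. Nr2f1 itself had 781 in UKS and 1568 in KS, and the part of A830082K12Rik in these values was not tested. Of 50-base windows of Meis1, 13.3% occur in a transcript of another gene, nearly all of them in Gm37818, and for the other genes the share was at most 2.22%.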

How the data were processed

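The 2 libraries were made from total RNA with an Illumina TruSeq RNA kit, per the labels' protocols. HISAT2, StringTie and the build GRCm38.p5 are named, without role, in the submitters' processing notes. For the counting program, annotation and strand setting, nothing is stated: they are not given in the sources used. As deposited, the values are estimated counts from the authors for 51912 genes, without scaling to depth, of which 21.5% of the values above 0 in UKS and 23.1% in KS were not whole. These counts were rounded, and CPM were taken on totals scaled by TMM factors (1.01 for UKS and 0.994 for KS; edgeR 4.0.16, R 4.3.3).

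Each group has 1 library, so no test was made. Ratios of counts carry exact (Clopper-Pearson) 95% intervals from scipy 1.17.1, which cover counting error only. Length and GC content came from the longest protein-coding transcript (or the longest transcript, for genes with none) in GENCODE M21, and their trend was a robust regression (Tukey's biweight, cubic terms, statsmodels 0.14.6; length limited to 200 to 20000 nt, GC content to 35 to 65%) fitted without the listed genes and subtracted from 12997 genes. Coordinates are GRCm38, from GENCODE. Identity between proteins was planned but not computed, and windows of 50 bases shared between transcripts were counted in its place. Recovery of set folds, and removal of a set length and GC trend, were checked on simulated counts with counting noise only. That check covered the more abundant genes. The neighbour, pair and promoter steps were not simulated. Alternatives were other scalings (library totals, DESeq2 1.42.0 size factors), pseudocounts, filters, unrounded counts and the trend removed. The genes described and the lists of relatives, cofactors and markers were chosen with earlier results of these data known. All 55 genes are named, with full values for those at least 2-fold apart, for those highest per length and for others that a sentence singles out after their values were seen. Of the relatives and cofactors, the 6 with the largest absolute ratio were named by rule. Results for some genes that this rule takes in, and another engineered change that both lines share, are not reported here.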

Additional observations from a re-analysis of the deposited data

How the results depend on the processing

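Each group has 1 library, so every value rests on a single library and no replicate could be left out. No paired analysis was possible because each group has 1 library and the labels carry no replicate numbers. All 24 genes past 2-fold stayed so with library totals, DESeq2 size factors, a pseudocount of 0.5 CPM, no filter and unrounded counts. A pseudocount of 2 CPM took out Lhx9, and a filter of 5 CPM dropped 7 low genes. The median of all genes moved by less than 0.1 under each alternative. With the 5 CPM filter 7 of the 55 genes were lower rather than 13, their median ratio was 0.32, and 6 relatives were higher and 1 lower rather than 11 and 2. With no filter the median ratio was 0.030 over those of the 55 with a count. With a pseudocount of 2 CPM 1 relative was lower. With library totals, and with a pseudocount of 0.5 CPM, 1 cofactor was higher rather than 0. With the length and GC trend removed, 648 genes of all were lower rather than 1396, 4 cofactors rather than 7, and the Usp16 ratio was -0.88. Of single genes, the ratios of Gata6, Foxc2 and Six4, all within 2-fold, changed sign with the trend removed. The causes were not tested. Under the limit of 1 CPM lay 12 of the 55 genes, and 1 count equals 0.0428 CPM in UKS and 0.0379 CPM in KS.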
